A study of Homo sapiens with 6 samples.

Results

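The ephrin, semaphorin, plexin, Slit and netrin genes were described in ARPE-19, an established human retinal pigment epithelium line, wild type, after 72 h in normal glucose or in high glucose, with 3 libraries per group. Members were taken by symbol: of the 60835 loci in the deposited table, 18304 hold an annotated protein-coding transcript, and 65 of these carry the symbol of an Eph receptor, ephrin, semaphorin of the SEMA3 to SEMA7 classes, plexin, Robo, Slit, netrin or UNC5 receptor. The 65 loci hold 66 symbols, since EFNA3 and EFNA4 share 1 locus. The rule itself uses symbols and annotation. The labels give neither the glucose concentrations nor separate cultures for the 3 libraries of a group, so p-values measure only how far these libraries differ, and that may be technical spread.

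These families were named for steering growing axons, and they also shape epithelia and blood vessels. Ephrins are bound to the cell surface and signal to Eph receptor kinases on a neighbouring cell, and back into their own cell. Semaphorins are secreted or membrane-bound ligands of plexins, and most SEMA3 proteins need a neuropilin as co-receptor. Slits are secreted ligands of Robo receptors, and netrins are laminin-like ligands whose signal is repulsive through UNC5 receptors and mostly attractive through DCC or neogenin. In the eye they guide retinal axons and the growth of retinal and choroidal vessels.

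In high glucose 9 semaphorins, the receptor PLXNB2, the ligand SLIT3 and the netrin receptor UNC5B were among the genes that rose, while NTN4, SLIT2, ROBO4, EPHB2, UNC5D and SEMA3B fell. Of the 65 loci, 59 passed the filter on low counts and were tested for high minus normal glucose. At an edgeR adjusted p under 0.05, here termed called, 15 were higher and 6 lower in high glucose, or 35.6% of those tested. The background to this is 19.6% called among all tested loci, and 25.5% (13.1% higher and 12.4% lower) among tested loci with a protein-coding transcript. The median log2 change was 0.36 over the 59 members and 0.01 over those protein-coding loci. Since the filter keeps a locus with enough counts in 1 group alone, the 59 are not all members of these families.

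By family, 9 semaphorins rose and 1 fell of 18 tested. Of 13 Eph receptors 1 rose and 1 fell, of 6 ephrin loci 1 rose, of 9 plexins 2 rose, of 6 Slits and Robos 1 rose and 2 fell, and of 7 netrins and UNC5 receptors 1 rose and 2 fell. The median log2 changes in that order were 0.77 for semaphorins, 0.07 for Eph receptors, 0.41 for ephrins, 0.16 for plexins, 0.24 for Slits and Robos and -0.33 for netrins and UNC5 receptors. Counted as ligands and receptors, 11 of 31 tested ligands rose and 3 fell, and 4 of 28 tested receptors rose and 3 fell. The groups did not overlap in CPM, the count scaled to the TMM library size, at 35 of the 59 members, against 49.5% of tested protein-coding loci.

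**Figure D1:**
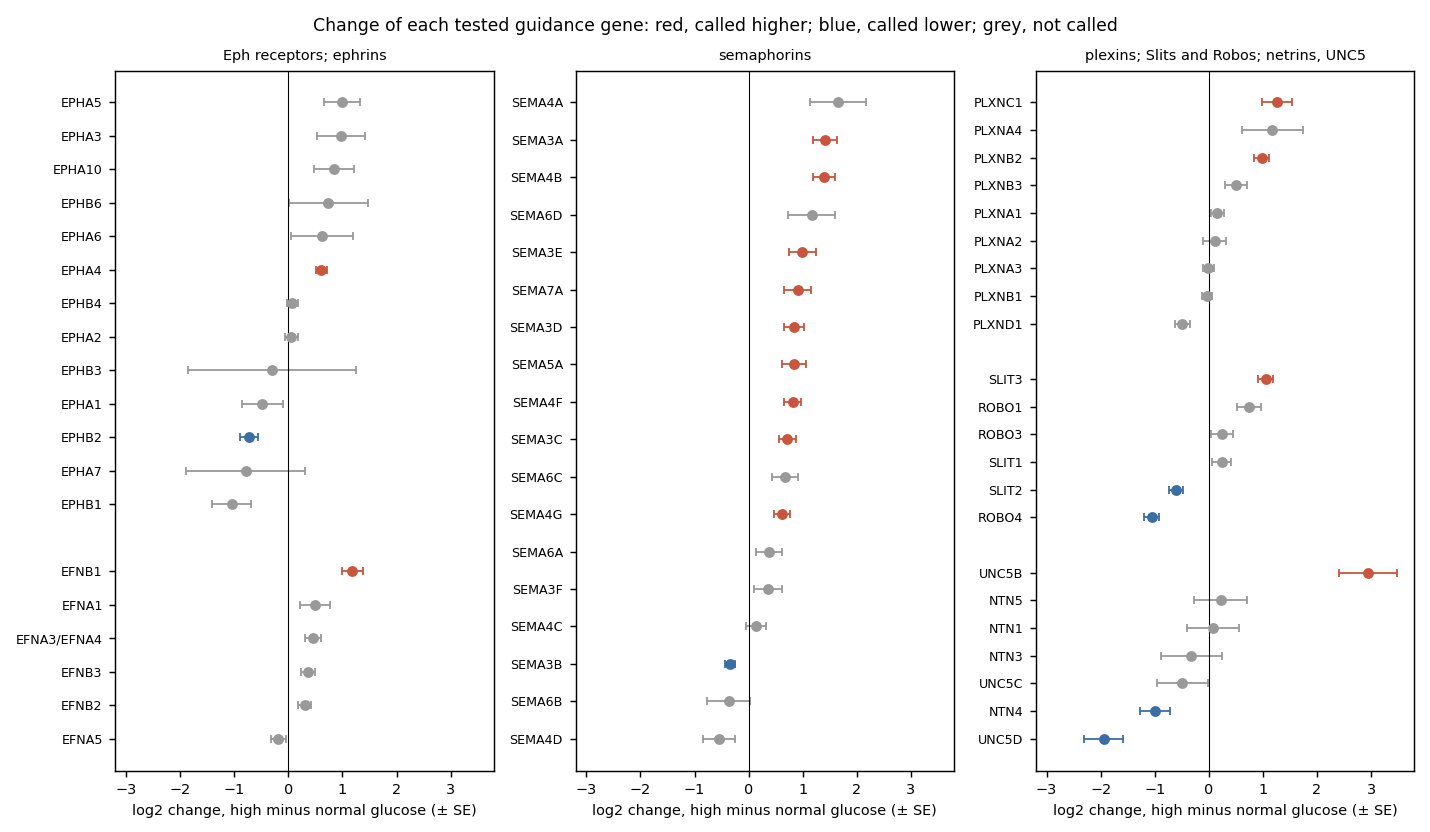
Log2 change in high minus normal glucose (x axis) with its standard error for the 59 tested guidance genes, ordered within each family. Red points were called higher, blue points lower and grey points not called; 9 of the 18 semaphorins are red, and UNC5B lies farthest to the right.

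The libraries held 81616741 to 87748820 counts. Normal glucose 3 stood apart, at -0.88 on the second principal component of log2 CPM where the other five libraries lay between 0.05 and 0.36. The biological coefficient of variation that edgeR estimated was 41.0% for normal and 27.2% for high glucose libraries. Without normal glucose 3, 20 members were called higher and 7 lower, and calls over all loci also rose, from 4906 to 7615. Without normal glucose 1, 10 members were called higher and 2 lower, and without normal glucose 2, 12 and 4. Calls over all loci were 2846 and 2727 in these 2 refits. Without high glucose 1, 2 and 3, 7, 5 and 5 members were called higher and 1, 1 and 1 lower. Calls over all loci fell likewise, from 4906 to 1631, 1421 and 1507. Every one of the 21 called members kept its direction in each of the 16 refits that gave it a value. Their groups did not overlap, so leaving out 1 library could hardly reverse a direction, and the other refits used the same libraries. Only SEMA3A, SEMA4B, PLXNB2, SLIT3 and ROBO4 were called in all of these refits. Below, the libraries without which a member was no longer called are named beside it, with 2 libraries left in that group. Calls lost with all 6 libraries kept are named in the closing part on processing.

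Markers placed the cells only in part. Of 15 retinal pigment epithelium markers, RPE65 was at 0.0117 ± 0.0202 and 0.0152 ± 0.0263 CPM (SD, n = 3) in normal and high glucose and TYR was at 0 in all normal glucose libraries, while OTX2 and MITF were present, at 38.6 and 83.1 CPM in normal glucose. MITF had a log2 change of -0.74 and was not called. BEST1, a chloride channel of this epithelium, fell by 2.20 (edgeR adjusted p = 0.0113), while the keratins KRT8 and KRT18 and the cadherin CDH3 rose, by 1.66, 1.88 and 3.08 on the log2 scale. Of the 12 tested markers of this list 8 had a negative estimate, and the median log2 change was -0.28. The list's summed level was 111 to 196 FPKM in normal and 405 to 430 FPKM in high glucose, of which KRT8 held means of 44.9 and 146 FPKM and KRT18 means of 63.8 and 241 FPKM. Of 8 endothelial markers, CDH5, TIE1, CLDN5 and ERG did not pass the filter, the receptor gene KDR fell by 2.41 (edgeR adjusted p = 0.00478), and the list's summed level was 1.29 to 2.08 FPKM in normal and 0.416 to 0.552 FPKM in high glucose. The summed level of 10 neuron markers was 18.9 to 30.6 FPKM in normal and 17.0 to 22.0 in high glucose, with STMN2 at 0 in every library and RBFOX3 and NEFL not tested. In that list the microtubule gene MAP2 fell by 1.75 (edgeR adjusted p = 0.0367), and SYT1 was at means of 22.9 and 38.9 CPM and not called. The locus of TUBB3 rose by 0.46 (edgeR adjusted p = 0.0466), but it also holds TCF25 and MC1R, so the rise cannot be credited to TUBB3. This locus held means of 6.13 and 8.67 FPKM of the neuron list's summed level. For 10 fibroblast markers the summed level was 18.5 to 29.1 and 26.1 to 26.3 FPKM, with TCF21 at 0 in every library. PDGFRB rose by 0.68 (edgeR adjusted p = 0.00572). The collagen gene COL1A1 fell by 2.49 (edgeR adjusted p = 0.0302), by library number from 86.4, 39.2 and 12.9 to 8.57, 7.86 and 8.15 CPM. Normal glucose 1 was the highest library for COL1A1, COL1A2, COL3A1, DCN, LUM and THY1, but not for PDGFRA, PDGFRB or FAP. COL1A2 was at 28.7 CPM there, against 0.862 and 0.866 CPM in normal glucose 2 and 3. Members of all 4 lists thus changed with glucose, in both directions in the epithelium and fibroblast lists. Upward, the neuron list had only the shared TUBB3 locus. The part of these lists in the changes below was not tested. In bulk RNA, fewer cells of a type and less RNA per cell cannot be told apart.

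Per length, 3 members exceeded all others. SEMA3C, a secreted semaphorin, had a deposited level of 85.8 ± 17.9 and 145 ± 3.39 FPKM (a level scaled to a length and to library size) in normal and high glucose (SD, n = 3). PLXNB2, a plexin that binds SEMA4 proteins, was at 62.5 ± 9.49 and 126 ± 5.12 FPKM. EPHA2, the main Eph receptor of many epithelia, was at 80.5 ± 8.01 and 86.1 ± 8.61 FPKM. In normal glucose SEMA3C and EPHA2 differed by less than the SD of SEMA3C, and in high glucose the order was SEMA3C, PLXNB2 and EPHA2 with gaps above their SDs. SEMA3B, SLIT3 and NTN4 followed, at means of 24.8, 20.1 and 17.2 FPKM over the 6 libraries, and every other member was below 10 FPKM. The summed FPKM of all members was 402, 362 and 434 in normal and 548, 542 and 558 in high glucose, and their share of all counts was 0.304% to 0.381% and 0.489% to 0.508%.

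**Figure D2:**
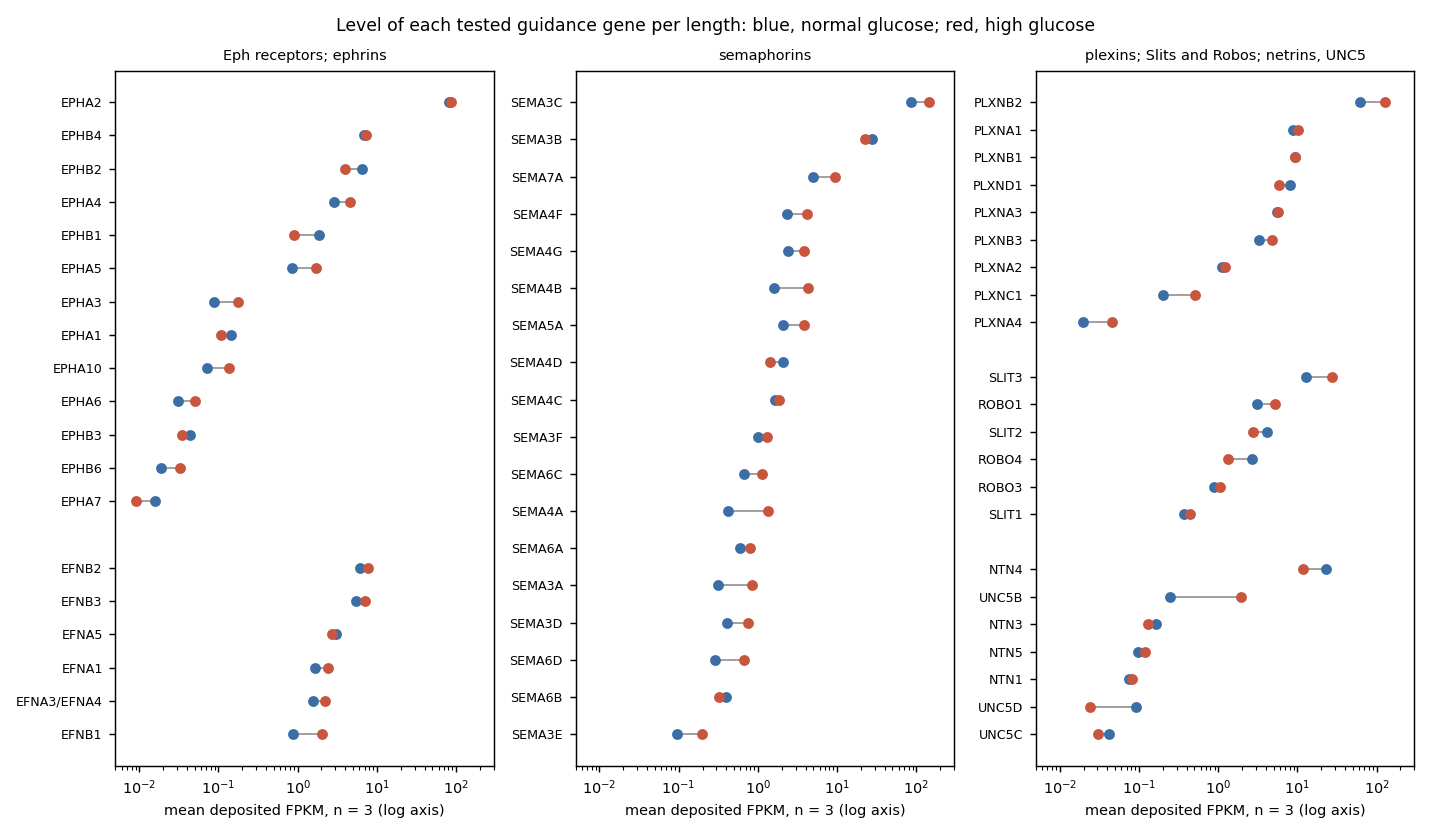
Mean deposited FPKM over 3 libraries on a log axis, in normal (blue) and high glucose (red), for the 59 tested guidance genes, ordered by level within each family. SEMA3C, PLXNB2 and EPHA2 lie highest, and a line joins the group means of each gene.

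Among the secreted SEMA3 ligands, 4 of 6 tested genes rose and 1 fell. CPM values are given in the order of library number. SEMA3A, the semaphorin that repels axons through neuropilin-1 and plexin A receptors, was at 4.6, 3.44 and 2.83 CPM in normal and 8.84, 10.1 and 10.0 CPM in high glucose (edgeR log2 change 1.41 with SE 0.22, adjusted p = 0.00816). The groups lay far apart, with the lowest high glucose library well above the highest normal glucose one. SEMA3C, which binds both neuropilins, was at 689, 509 and 785 and 1106, 1081 and 1074 CPM (edgeR log2 change 0.72 with SE 0.162, adjusted p = 0.0244). Its normal glucose values were spread widely and its high glucose values lay close together, with no overlap. SEMA3C lost its call without normal glucose 1 or high glucose 1, 2 or 3 (edgeR adjusted p = 0.0623 to 0.0867).

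SEMA3D, a relative that guides endothelial and neural crest cells, was at 4.31, 4.53 and 3.32 and 7.77, 6.81 and 7.2 CPM (edgeR log2 change 0.84 with SE 0.189, adjusted p = 0.0238). It lost its call without normal glucose 1 or high glucose 1, 2 or 3 (edgeR adjusted p = 0.0562 to 0.094). SEMA3E, which binds PLXND1 with no need of a neuropilin, was at 1.06, 1.21 and 0.794 and 2.19, 2.1 and 1.83 CPM (edgeR log2 change 0.99 with SE 0.256, adjusted p = 0.0364), and lost its call without normal glucose 1 or 2 or high glucose 1, 2 or 3 (edgeR adjusted p = 0.0554 to 0.12). For both genes all 3 high glucose libraries lay above all 3 normal glucose ones, at low levels of at most 7.77 and 2.19 CPM. SEMA3B, a secreted semaphorin with growth-limiting activity in tumours, was lower in high glucose, at 194, 191 and 208 and 158, 158 and 150.1 CPM (edgeR log2 change -0.35 with SE 0.0928, adjusted p = 0.04). Its locus also holds the microRNA gene MIR6872, and it lost its call without normal glucose 1 or 2 or high glucose 1, 2 or 3 (edgeR adjusted p = 0.0673 to 0.157). SEMA3F, which favours neuropilin-2, was at 6.51, 4.0 and 7.56 and 7.12, 7.19 and 8.91 CPM with groups that overlapped (edgeR log2 change 0.36 with SE 0.26, adjusted p = 0.377). SEMA3G had at most 8 counts in a library and was not tested.

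The 4 SEMA3 genes that rose lie in 1 stretch of chromosome 7, from 80742538 to 85186855, in the order SEMA3C, SEMA3E, SEMA3A and SEMA3D. This neighbourhood was looked at after the values were seen. In the table, 29 other loci overlap its 4.44 Mb, and 5 of them were tested. PCLO, a presynaptic scaffold gene, rose (edgeR log2 change 0.75 with SE 0.163, adjusted p = 0.0217), and CACNA2D1, a calcium channel subunit, was not called (edgeR log2 change 0.32 with SE 0.16, adjusted p = 0.208). A further 2 are loci without an annotated transcript inside the extent of SEMA3C, on the other strand, and both rose. Strand use in the counting is not stated, so how far their counts are separate from those of SEMA3C cannot be told. The fifth, AC074183, was not called, with a negative estimate. The other SEMA3 genes tested, SEMA3B and SEMA3F, lie on chromosome 3, 78.5 kb apart, and were not called higher.

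**Figure D3:**
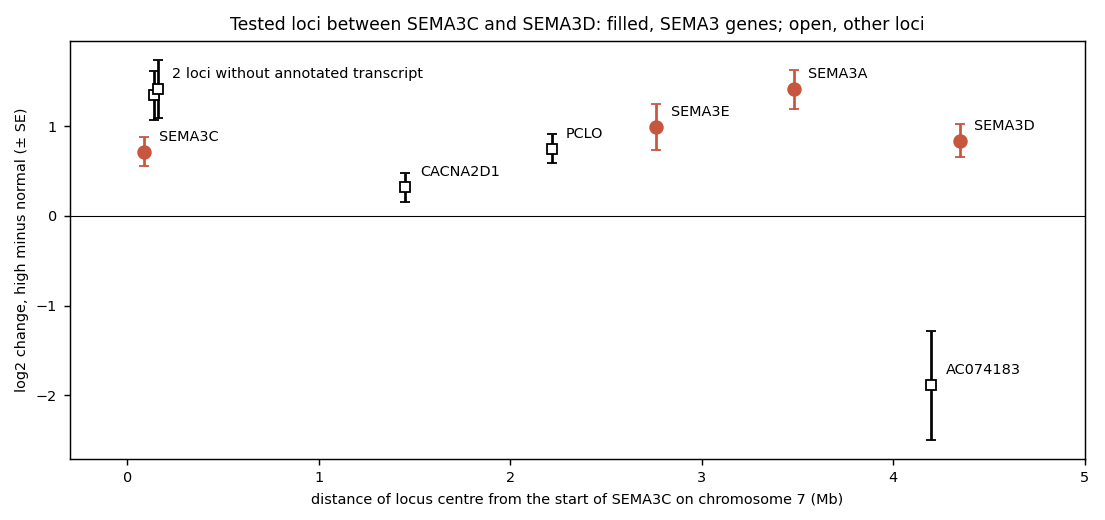
Log2 change with standard error (y axis) of the tested loci between SEMA3C and SEMA3D, against the distance of the locus centre from the start of SEMA3C in Mb (x axis). Filled points are the 4 SEMA3 genes, all above 0; open squares are the 5 other tested loci, of which AC074183 alone lies below 0.

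Sequences before the start sites are shown for the members of this stretch that rose together and have an entry in the RefSeq promoter table (GRCh38.p14), and for ROBO4, the called receptor with the most stable fall. SEMA3A has no entry there. Each run gives the 250 bases before the RefSeq start, 5′ to 3′ on the gene's strand, which is the minus strand for all 4 genes. Capitals mark matches to any of 4 motifs, searched on both strands. The E-box, CACGTG, has the core letters of sites bound by the glucose-responsive factors MondoA and ChREBP. The others were a composite site of ATF4, which is TGATGCAA, the GC box, which is GGGCGG, and the TATA box, which is TATAAA.

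SEMA3C, chr7:80922390-80922639: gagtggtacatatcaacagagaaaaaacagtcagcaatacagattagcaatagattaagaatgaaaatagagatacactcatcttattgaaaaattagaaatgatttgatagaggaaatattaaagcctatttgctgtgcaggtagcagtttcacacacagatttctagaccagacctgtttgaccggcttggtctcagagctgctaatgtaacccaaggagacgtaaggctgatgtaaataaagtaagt

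SEMA3E, chr7:83649140-83649389: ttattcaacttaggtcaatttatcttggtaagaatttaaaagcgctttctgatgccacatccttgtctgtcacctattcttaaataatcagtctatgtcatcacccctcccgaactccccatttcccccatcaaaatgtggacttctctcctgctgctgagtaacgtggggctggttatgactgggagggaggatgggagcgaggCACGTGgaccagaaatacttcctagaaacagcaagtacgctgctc

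SEMA3D, chr7:85187057-85187306: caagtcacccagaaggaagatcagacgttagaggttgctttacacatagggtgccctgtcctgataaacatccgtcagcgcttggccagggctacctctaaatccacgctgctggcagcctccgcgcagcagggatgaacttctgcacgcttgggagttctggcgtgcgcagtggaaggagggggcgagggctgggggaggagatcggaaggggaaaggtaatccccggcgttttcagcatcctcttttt

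ROBO4, chr11:124897866-124898115: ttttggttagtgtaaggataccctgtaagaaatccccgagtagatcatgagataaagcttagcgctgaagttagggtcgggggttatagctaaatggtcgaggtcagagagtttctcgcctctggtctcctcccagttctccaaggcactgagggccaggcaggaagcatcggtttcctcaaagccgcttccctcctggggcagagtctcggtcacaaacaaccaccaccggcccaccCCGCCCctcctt

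SEMA3E holds 1 E-box 45 bases before its start, ROBO4 holds 1 GC box on the other strand 12 bases before its start, and SEMA3C and SEMA3D hold none of the 4 motifs. Their GC content was 36.4%, 46.4%, 57.6% and 54.8% in the order shown, against a median of 65.6% over the 57 member symbols with an entry and 58.0% over all 27305 windows. An E-box was found before 4 of the 57 members (EPHA8, SEMA3E, SEMA4D and SEMA6D), or 7.02%, against 6.49% of all windows and 7.84% of those of protein-coding genes. The ATF4 motif was found before none of the 57 and in 0.820% of all windows. A GC box was found before 42 of the 57 (73.7%), against 42.3% of all windows and 56.0% of protein-coding ones, and a TATA box before EFNB2 alone (1.75%), against 11.1% and 9.23%. A match is a description of letters and not of binding, and except for SEMA3E the RefSeq start differs from where the locus in the table begins. For SEMA3C and SEMA3D the RefSeq start lies 3206 and 201 bases upstream of the locus. For ROBO4 the locus begins 635 bases upstream of the RefSeq start, so that the window and its GC box lie inside the locus.

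Of the membrane-bound SEMA4 ligands, 3 of 6 tested rose. SEMA4B was at 14.9, 10.3 and 16.7 CPM in normal and 39.0, 30.8 and 40.1 CPM in high glucose (edgeR log2 change 1.39 with SE 0.211, adjusted p = 0.00759). SEMA4F was at 18.9, 14.6 and 20.8 and 31.7, 31.3 and 32.9 CPM (edgeR log2 change 0.82 with SE 0.157, adjusted p = 0.0148). The groups of both genes were apart, and SEMA4B more than doubled on average, whereas SEMA4F lost its call without high glucose 1, 2 or 3 (edgeR adjusted p = 0.0602 to 0.0646). SEMA4G was at 17.1, 13.2 and 17.0 and 25.1, 24.6 and 23.2 CPM (edgeR log2 change 0.62 with SE 0.147, adjusted p = 0.0276), and lost its call without normal glucose 1 or 2 or high glucose 1, 2 or 3 (edgeR adjusted p = 0.052 to 0.103). Its locus overlaps that of MRPL43 on the other strand over 16096 bases, and strand use in the counting is not stated. MRPL43 itself was at means of 18.5 and 18.5 CPM.

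SEMA4A, an immune and photoreceptor-supporting semaphorin, had the largest estimate of the family without being called. It was at 2.6, 1.67 and 6.46 CPM in normal and 13.5, 12.9 and 7.24 CPM in high glucose (edgeR log2 change 1.65 with SE 0.513, adjusted p = 0.0637). Normal glucose 3 was close to high glucose 3. SEMA4A was called in 5 of 16 refits, 1 of them without normal glucose 3 (edgeR adjusted p = 0.00546), where the estimate was 2.40. SEMA4C, a ligand of PLXNB2, was at 13.0, 14.7 and 16.3 and 16.9, 12.8 and 18.7 CPM (edgeR log2 change 0.14 with SE 0.181, adjusted p = 0.634). SEMA4D, a ligand of PLXNB1 and of CD72, was at 35.8, 24.5 and 49.9 and 28.2, 17.6 and 29.3 CPM (edgeR log2 change -0.55 with SE 0.297, adjusted p = 0.238). In both the groups overlapped, with the lowest SEMA4D value in high glucose 2.

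Among the remaining semaphorins 2 rose. SEMA5A, a transmembrane protein with thrombospondin repeats, was at 36.7, 21.1 and 37.5 CPM in normal and 55.5, 54.9 and 59.2 CPM in high glucose (edgeR log2 change 0.83 with SE 0.219, adjusted p = 0.0391). It lost its call without normal glucose 1 or high glucose 1, 2 or 3 (edgeR adjusted p = 0.0652 to 0.119). SEMA7A, which is anchored by a lipid and binds PLXNC1 and integrins, was at 20.8, 16.0 and 33.3 and 44.0, 43.2 and 44.0 CPM (edgeR log2 change 0.90 with SE 0.255, adjusted p = 0.0475), and lost its call without normal glucose 1 or 2 or high glucose 1, 2 or 3 (edgeR adjusted p = 0.0923 to 0.137). In both genes the 3 high glucose values lay close together, and normal glucose 2 was lowest.

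No SEMA6 gene was called. SEMA6D, a transmembrane ligand of plexin A receptors, was at 3.63, 3.76 and 1.97 and 11.5, 4.83 and 4.67 CPM, with high glucose 1 far above the other five libraries (edgeR log2 change 1.17 with SE 0.429, adjusted p = 0.101). SEMA6C was at 3.48, 6.49 and 4.83 and 8.38, 7.73 and 7.52 CPM (edgeR log2 change 0.67 with SE 0.246, adjusted p = 0.0989), and passed the threshold without normal glucose 2 (edgeR adjusted p = 0.0498). SEMA6A and SEMA6B had log2 changes of 0.38 and -0.37, and SEMA6A passed the threshold without normal glucose 3 (edgeR adjusted p = 0.0436). SEMA5B had at most 13 counts in a library and was not tested. The number of semaphorins called higher was 3, 7 and 11 without normal glucose 1, 2 and 3, and 2 each without high glucose 1, 2 and 3. Semaphorins were thus most of the members called higher in the fit to all 6 libraries and without normal glucose 2 or 3, but not without any of the other four.

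**Figure D4:**
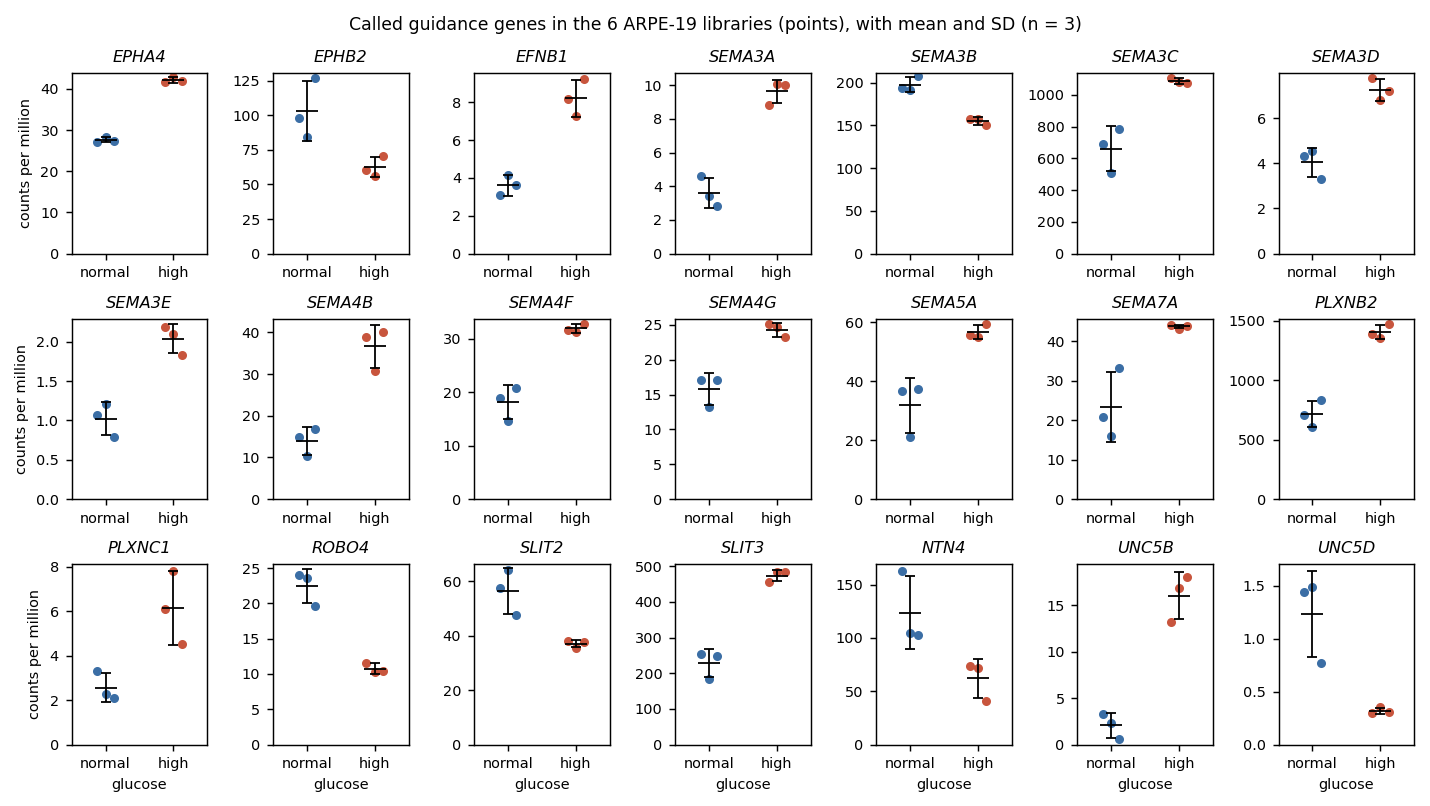
CPM (y axis, from 0) of the 21 called guidance genes in the 3 normal (blue) and 3 high glucose (red) libraries; points are libraries, bars the mean and SD. In each panel the groups do not overlap, and the high glucose points of SEMA3C, SEMA5A, SEMA7A and SLIT3 lie closer together than the normal glucose ones.

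Of the 9 plexins, the semaphorin receptors, 2 rose and none fell. PLXNB2, which steers epithelial and neural cell movement, was at 711, 607 and 829.6 CPM in normal and 1386, 1359 and 1474 CPM in high glucose (edgeR log2 change 0.97 with SE 0.134, adjusted p = 0.00591). All 3 high glucose libraries lay far above the highest normal glucose one. PLXNC1, the receptor of SEMA7A, was at 3.3, 2.3 and 2.1 and 6.1, 7.83 and 4.53 CPM (edgeR log2 change 1.26 with SE 0.283, adjusted p = 0.024). It was low and varied within high glucose, and lost its call without normal glucose 2 or high glucose 1 or 2 (edgeR adjusted p = 0.0746 to 0.092). Its locus overlaps 1227 bases of CEP83, on the other strand, which was at means of 6.50 and 3.86 CPM.

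The plexin A receptors of SEMA3 and SEMA6 ligands were not called. PLXNA1 was at 113, 113 and 137 CPM in normal and 134, 127 and 144 CPM in high glucose (edgeR log2 change 0.16 with SE 0.118, adjusted p = 0.393). PLXNA2 and PLXNA3 had log2 changes of 0.11 and -0.01, and the sign of PLXNA3 was the opposite in 6 of its 16 refits. PLXNA4, at most 1.17 CPM, was not called. PLXNB1, the SEMA4D receptor, was at 124, 119.9 and 121 and 113, 121 and 122 CPM (edgeR log2 change -0.04 with SE 0.0913, adjusted p = 0.81), the smallest SE of any tested member. PLXNB3, a receptor of SEMA5A in a locus with SRPK3, was at 47.0, 30.0 and 51.3 and 57.3, 59.1 and 64.6 CPM (edgeR log2 change 0.50 with SE 0.201, adjusted p = 0.129). PLXND1, the receptor of SEMA3E, was lower in every high glucose library, at 103, 76.9 and 108 and 69.9, 66.9 and 68.4 CPM (edgeR log2 change -0.49 with SE 0.144, adjusted p = 0.0544). It was called in 5 of 16 refits, 1 of them without normal glucose 2 (edgeR adjusted p = 0.0225). Thus SEMA7A and its receptor PLXNC1 were both higher, and SEMA3E was higher while PLXND1 missed the threshold with a negative estimate.

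Slits and Robos changed in both directions. SLIT3, the most abundant Slit here, was at 254, 183 and 249.5 CPM in normal and 455, 483 and 484 CPM in high glucose (edgeR log2 change 1.05 with SE 0.145, adjusted p = 0.00599). SLIT2, which limits cell migration through ROBO1, was at 57.6, 64.1 and 47.4 and 37.9, 35.6 and 37.6 CPM (edgeR log2 change -0.61 with SE 0.136, adjusted p = 0.0236), and lost its call without normal glucose 1 or 2 or high glucose 1, 2 or 3 (edgeR adjusted p = 0.0634 to 0.0991). These 2 related ligands thus changed in opposite directions, each with groups that did not overlap. SLIT1, in a locus with ARHGAP19, was at 8.72, 6.69 and 9.1 and 9.22, 9.74 and 9.86 CPM (edgeR log2 change 0.23 with SE 0.171, adjusted p = 0.384).

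ROBO4, the Robo first known from endothelium, was at 24.0, 23.6 and 19.7 CPM in normal and 11.6, 10.3 and 10.4 CPM in high glucose (edgeR log2 change -1.06 with SE 0.142, adjusted p = 0.00539). Every high glucose value lay well below the lowest normal glucose value. ROBO1, the main Slit receptor, was at 31.8, 38.9 and 55.8 and 69.0, 63.3 and 79.1 CPM and narrowly missed the threshold (edgeR log2 change 0.74 with SE 0.214, adjusted p = 0.051). It was called in 10 of 16 refits, one of them without normal glucose 3 (edgeR adjusted p = 0.00461). ROBO3, which lies 2.22 kb from ROBO4 on chromosome 11, was at 8.87, 8.15 and 6.17 and 7.95, 9.36 and 10.1 CPM with overlapping groups (edgeR log2 change 0.24 with SE 0.195, adjusted p = 0.432). ROBO2 had at most 8 counts in a library and was not tested.

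UNC5B, a netrin receptor that also binds ROBO4 and signals repulsion, had the largest change of any member. It was at 3.27, 2.35 and 0.637 CPM in normal and 13.2, 16.9 and 18.0 CPM in high glucose (edgeR log2 change 2.94 with SE 0.538, adjusted p = 0.013), a fold change of 7.67. Normal glucose 3 was the lowest library, and the estimate was 2.51 without it. UNC5B lost its call without high glucose 2 or 3 (edgeR adjusted p = 0.0531 to 0.0534). UNC5D, a related receptor, fell at a low level, from 1.44, 1.49 and 0.77 to 0.303, 0.353 and 0.304 CPM (edgeR log2 change -1.94 with SE 0.363, adjusted p = 0.0138), and lost its call without high glucose 1, 2 or 3 (edgeR adjusted p = 0.0595 to 0.0636). Its extent also holds the pseudogene LSM12P1 and a locus without an annotated transcript, at means of 15.1 and 13.5 CPM in normal glucose, neither of them called. UNC5C, at most 0.705 CPM, was not called, and UNC5A, with at most 19 counts, was not tested.

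NTN4, a netrin of basement membranes that binds laminin, was the only netrin above a trace level. It was at 163, 105 and 103 CPM in normal and 73.3, 71.5 and 41.2 CPM in high glucose (edgeR log2 change -0.99 with SE 0.274, adjusted p = 0.0445). Normal glucose 1 and high glucose 3 stood apart within their groups, and the groups did not overlap. The estimates without these libraries were -0.74 and -0.77, and NTN4 lost its call without normal glucose 1 or 2 or high glucose 1, 2 or 3 (edgeR adjusted p = 0.0733 to 0.121). NTN1, the first netrin ligand described, was at most 1.07 CPM in any library and not called. NTN3 and NTN5 were at most 0.547 and 0.661 CPM, with log2 changes of -0.33 and 0.22, and not called. Of the netrin receptors outside the UNC5 family, DCC was not tested, at 0.0587 ± 0.0307 and 0.0152 ± 0.0263 CPM (SD, n = 3), and NEO1, which encodes neogenin, rose from 89.4 ± 14.1 to 131 ± 3.17 CPM (SD, n = 3), with a log2 change of 0.56 (edgeR adjusted p = 0.0276). NEO1 lost its call without normal glucose 2 or high glucose 1, 2 or 3 (edgeR adjusted p = 0.0798 to 0.0974).

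Eph receptors were largely not called. EPHA2 was at 380.5, 458 and 453 CPM in normal and 398, 451 and 493 CPM in high glucose (edgeR log2 change 0.06 with SE 0.127, adjusted p = 0.794), and its groups overlapped. EPHA4, which binds ephrins of both classes, was at 27.2, 28.3 and 27.5 and 41.7, 43.0 and 41.8 CPM (edgeR log2 change 0.61 with SE 0.1, adjusted p = 0.00941). Within each group its values lay close together, and it lost its call without high glucose 2 or 3 (edgeR adjusted p = 0.0508 to 0.0562). EPHB2, a receptor of ephrin-B ligands, fell, with 98.1, 84.4 and 127 and 60.3, 56.2 and 70.2 CPM (edgeR log2 change -0.73 with SE 0.173, adjusted p = 0.0283), and lost its call without normal glucose 1 or high glucose 1, 2 or 3 (edgeR adjusted p = 0.0653 to 0.113). EPHA4 was the only A-type and EPHB2 the only B-type receptor called, and estimates within each type went in both directions.

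EPHB4, the partner of EFNB2 in vessels, was at 55.4, 51.7 and 57.2 CPM in normal and 61.1, 58.1 and 53.7 CPM in high glucose (edgeR log2 change 0.07 with SE 0.105, adjusted p = 0.666). Its locus overlaps 702 bases of SLC12A9, which fell (log2 change -0.57, edgeR adjusted p = 0.0194). EPHB1 was at 22.4, 17.8 and 7.77 and 8.55, 7.63 and 6.96 CPM (edgeR log2 change -1.05 with SE 0.36, adjusted p = 0.0842), so that normal glucose 3 lay among the high glucose libraries. EPHB1 passed the threshold without normal glucose 3 (edgeR adjusted p = 0.00216). EPHA5 was at 20.6, 17.5 and 8.24 and 24.5, 32.3 and 34.8 CPM (edgeR log2 change 0.98 with SE 0.331, adjusted p = 0.0795), again with normal glucose 3 apart, and passed the threshold without normal glucose 3 (edgeR adjusted p = 0.0357). Low levels, at most 1.65 CPM in any library, were found for EPHA1, EPHA3, EPHA6, EPHA7, EPHA10, EPHB3 and EPHB6, none of them called, though EPHA3 passed the threshold without normal glucose 1 (edgeR adjusted p = 0.046). The EPHA1 locus shares 823 bases with ZYX, at a mean of 281 CPM in normal glucose. EPHA8 had 4 counts in 1 library and none in the other five, where a count of 0 allows up to 3 fragments of about 4 counts, or 0.135 to 0.146 CPM, for counting error only.

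Of the ephrins, EFNB1 alone was called. This transmembrane ligand, whose gene is mutated in craniofrontonasal syndrome, was at 3.07, 4.17 and 3.62 CPM in normal and 8.17, 7.27 and 9.23 CPM in high glucose (edgeR log2 change 1.18 with SE 0.195, adjusted p = 0.00948). It more than doubled on average and lost its call without high glucose 3 (edgeR adjusted p = 0.0514). EFNB2, the arterial ephrin, was at 36.4, 43.3 and 35.3 and 48.2, 44.9 and 48.2 CPM (edgeR log2 change 0.30 with SE 0.121, adjusted p = 0.129). EFNB3 was at 19.9, 20.8 and 24.6 and 27.7, 28.2 and 28.0 CPM (edgeR log2 change 0.36 with SE 0.127, adjusted p = 0.0901), and passed the threshold without normal glucose 3 (edgeR adjusted p = 0.0167). All 3 ephrin-B genes had high glucose values above all normal glucose values, and for EFNB2 and EFNB3 the gap was small and neither was called. Groups did not overlap, in either direction, at 49.5% of tested protein-coding loci.

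The ephrin-A ligands, which are held by a lipid anchor, were not called. EFNA1 was at 5.58, 5.13 and 2.84 CPM in normal and 7.36, 5.8 and 5.96 CPM in high glucose (edgeR log2 change 0.50 with SE 0.281, adjusted p = 0.26). The shared locus of EFNA3 and EFNA4, 40.9 kb from EFNA1 on chromosome 1, was at 5.93, 6.34 and 6.48 and 8.68, 9.18 and 7.82 CPM (edgeR log2 change 0.45 with SE 0.153, adjusted p = 0.0807). EFNA5 was at 32.6, 28.5 and 35.7 and 28.0, 31.2 and 25.9 CPM, with a negative estimate and overlapping groups (edgeR log2 change -0.19 with SE 0.136, adjusted p = 0.386). EFNA2 had at most 26 counts in a library and was not tested.

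Genes that work with these families were read from 3 lists outside the rule. Of 21 tested co-receptors and further guidance genes, 7 rose and 2 fell (42.9% called, median log2 change 0.36), against 25.5% called among tested protein-coding loci. NRP1, neuropilin-1, the co-receptor of SEMA3A and SEMA3C, fell from 183 ± 17.6 to 85.8 ± 17.8 CPM (SD, n = 3), with a log2 change of -1.09 (edgeR adjusted p = 0.00761). NRP2, neuropilin-2, was at 24.7 ± 8.12 and 27.2 ± 2.69 CPM (SD, n = 3), with a log2 change of 0.14 (edgeR adjusted p = 0.719). It passed the threshold without normal glucose 3 (edgeR adjusted p = 0.0397). So SEMA3A and SEMA3C were higher while NRP1 was lower. SDC3, a syndecan that carries heparan sulphate, rose by 1.04 (edgeR adjusted p = 0.00258). NRCAM, an adhesion protein in semaphorin receptor complexes, fell by 2.92 (edgeR adjusted p = 0.00419).

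Of 61 tested intracellular effectors, 6 rose and 6 fell (19.7% called against 25.5% of tested protein-coding loci, median 0.05). SHB, 1 of the 6 that rose, lies in a locus with FBXO10, EXOSC3 and further genes, so that rise cannot be credited to SHB. Some uncalled loci of the list, such as that of CDC42, also hold several genes. RRAS, a small GTPase that plexins switch off, rose from 44.0 ± 4.71 to 101 ± 4.81 CPM (SD, n = 3), with a log2 change of 1.19 (edgeR adjusted p = 0.00272). ARHGEF11, an exchange factor for RhoA that binds plexin B receptors, fell from 184 ± 7.75 to 103 ± 3.65 CPM (SD, n = 3), with a log2 change of -0.83 (edgeR adjusted p = 0.00342). Of 15 tested proteases that cut such ligands and receptors, 2 rose (13.3%) and none fell. Among tested protein-coding loci 13.1% were called higher and 12.4% lower. MMP14, a membrane protease that cleaves EPHA2, rose by 0.84 (edgeR adjusted p = 0.00618), and RHBDL2, a rhomboid protease that cleaves ephrin-B ligands, by 1.15 (edgeR adjusted p = 0.00818).

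**Figure D5:**
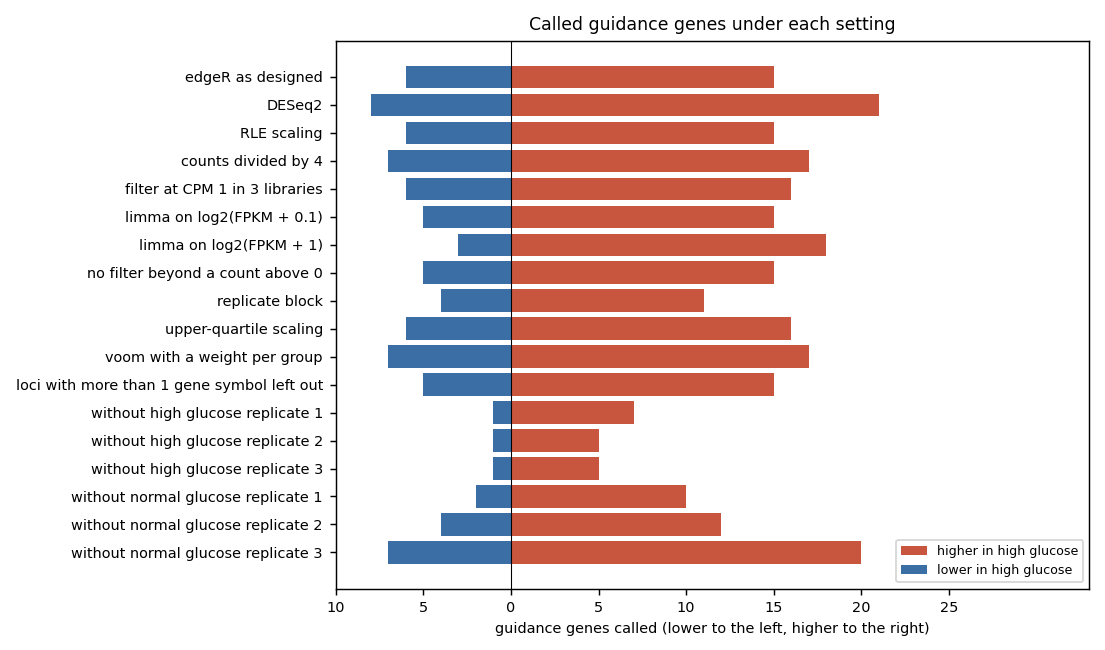
Number of guidance genes called higher (red, to the right) and lower (blue, to the left) in high glucose, for the edgeR fit as designed and for each alternative. The red bar is 15 in the designed fit, 20 without normal glucose replicate 3, and 5 to 7 without any one high glucose replicate.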

How the data were processed

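The authors deposited 1 table of RNA-seq values per locus, holding whole-number counts that are not normalized, and FPKM, per the file headers. In FPKM, values are divided by a length and by sequencing depth, and the headers do not state which length was used. FPKM stands at 0.0001 where the count is 0. Per the labels' protocols, Trizol RNA was selected with oligo-dT beads and sequenced as read pairs. Bowtie 0.12.2 and a mouse build, mm8, appear in the submitters' processing notes, yet identifiers and coordinates are human: 99.7% of 37770 symbol positions overlap GRCh38.p14. The counting tool and the use of strand are not given in the sources used here. Values of 4 were more frequent (9555) than of 3 (4210) or 5 (2659), so a fragment may have been counted about 4 times.

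Counts were filtered with filterByExpr, which kept 25025 loci, scaled with TMM and tested across all of these loci with edgeR 4.0.16 (glmQLFit and glmQLFTest, 2-sided, Benjamini-Hochberg adjustment, with group as single term) under R 4.3.3. Each SE was derived from the estimate and its F statistic. Scripts were tested on simulated data. Alternatives were DESeq2 1.42.0, limma 3.58.1 on log2 FPKM (pseudocounts 0.1 and 1) or as voom, other scalings and filters, counts divided by 4, a replicate block and the omission of each library. Replicate numbers were not taken as pairs. All 37 mitochondrial loci hold 0 counts. The members, the lists and the tests were chosen with earlier results of these data known. Every called member is given by library, with the most abundant uncalled ones of each family, NRP1, NRP2, NEO1, DCC and up to 2 called genes of each list. PCLO, CACNA2D1, AC074183, MRPL43, CEP83, SLC12A9, LSM12P1, SHB and the further uncalled members with values were named after these were seen.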

Additional observations from a re-analysis of the deposited data

How the results depend on the processing

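The number of members called higher (15) was 11 to 21 over the alternatives that used all 6 libraries, and 5 to 20 when 1 library was left out. The number called lower (6) was 3 with limma on log2(FPKM + 1), 4 to 8 under the others that kept all libraries, and 1 to 7 when 1 library was left out. Among the omissions, both numbers rose only without normal glucose 3. Each omission also reduced the libraries tested to 5. With the replicate block, 11 members were called higher and 4 lower, and 2545 loci were called in all, against 4906 in the designed fit. SEMA3B, SEMA3D, SEMA3E, SEMA4G, SEMA5A, SEMA7A and SLIT2 lost their call with this block, as did NEO1 outside the members. Here 4 semaphorins were called higher in place of 9, so they were no longer most of the members called higher. Nor were they most with limma on log2(FPKM + 0.1), where 7 of the 15 members called higher were semaphorins. The labels do not state whether same-numbered libraries share more than a number. Their deviations from the group means correlated at -0.017, -8e-04 and -0.0094, and no library correlated best with its own number. DESeq2 called 21 higher and 8 lower, with all 21 of the edgeR calls kept and 8 gained. Over all loci DESeq2 also called more, 7050 against 4906 in the designed fit. Of 335 values of the 21 called members under the 16 refits, 260 kept the call and 75 did not, 60 of these 75 where a library was left out. None changed direction, which groups that do not overlap largely fix in advance. With no filter beyond a count above 0, SEMA3B and SEMA3E lost their call. With limma on log2(FPKM + 0.1) SEMA3D, SEMA3E and NTN4 lost theirs, and with limma on log2(FPKM + 1) SLIT2, NTN4 and UNC5D. At least 1 refit called 11 of the 38 uncalled members: ROBO1 in 10, PLXND1 and SEMA4A in 5 each, EFNB3 in 3 and the others in fewer. Leaving out loci with more than 1 gene symbol gave 15 and 5, since SEMA3B shares its locus with MIR6872. The median log2 change of all loci lay between -0.02 and 0.04 in every refit. Members under about 1 CPM, such as EPHA7, EPHB3, EPHB6, NTN1, NTN3 and NTN5, rest on few fragments, and no difference was detectable for them at this depth. The called UNC5D also rests on few fragments in high glucose, with 27, 31 and 25 counts.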

Other observations

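The table also holds 5 loci that carry a member's symbol but no annotated transcript, and so lie outside the members. Of these, 2 lie inside the extent of SEMA3C. The locus at chr7:80872948-80888937 was at 5.16, 2.99 and 4.76 CPM in normal and 14.0, 9.61 and 9.19 CPM in high glucose (edgeR log2 change 1.34 with SE 0.274, adjusted p = 0.0179), and that at chr7:80899296-80903490 was at 4.45, 1.88 and 4.16 and 9.21, 9.12 and 9.71 CPM (edgeR log2 change 1.42 with SE 0.323, adjusted p = 0.0249). Both rose as SEMA3C did, and both lie on the strand opposite to SEMA3C, with strand use in the counting not stated. A locus of 287 bases inside SEMA6D was at 0.15, 0.0816 and 0.108 and 0.852, 0.661 and 1.02 CPM (edgeR log2 change 2.88 with SE 0.428, adjusted p = 0.00734), so it was called while SEMA6D was not. The difference between these was not tested. The locus named UNC5D without an annotated transcript was at 13.5, 11.7 and 15.2 and 11.9, 9.17 and 14.8 CPM (edgeR log2 change -0.17 with SE 0.21, adjusted p = 0.617), and was not called, while UNC5D fell. The fifth, named EPHA3, had at most 31 counts in a library and was not tested.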
